A study of Mus musculus with 8 samples.

Results

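The circadian clock genes described here are 10 genes of the mouse: Nr1d1, Nr1d2, Per1, Per2, Per3, Cry1, Cry2, Bmal1, Tef and Nfil3. They were taken by symbol from a count table of 55414 Ensembl genes, all 10 were present, and all 10 passed the filter on low counts that left 11929 genes. Their values came from 8 RNA-seq libraries of FACS-sorted Paneth cells, secretory epithelial cells of the gut that release defensins and lysozyme. Of these, 4 were from mice with the genotype DT TG, labelled diphtheria toxin (TG), and 4 were from wild type mice (WT). The comparison asks how expression in the sorted cells differs after depletion of mature Paneth cells. The study names C57BL/6J as the strain of its sorted mice. The sources used here do not give the promoter that drives the toxin, the age of these mice, or the hour at which they were killed, and whether the sorted TG cells carry the toxin was not tested. The study describes its sequenced Paneth cell samples as coming from individual mice, and the labels give these replicates a number only.

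The molecular clock is a feedback loop of transcription that runs in most cells, epithelial cells of the gut included. BMAL1 pairs with CLOCK or NPAS2 and switches on genes through E-boxes, among them the Per, Cry and Nr1d genes. PER and CRY proteins then block BMAL1 and its partner, and the nuclear receptors NR1D1 and NR1D2 (REV-ERB alpha and beta) repress genes with ROR elements, of which Bmal1, Cry1 and Nfil3 are well known targets. A further branch works through D-boxes, which TEF activates and NFIL3 represses.

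Values are CPM, counts scaled to a common library size with TMM factors, and log2 fold changes are TG over WT. Total counts ranged from 13107397 to 16218434 per library, and the 10 genes had 26 to 711 counts in a library. In both groups, 4 Y-linked genes summed to 897 to 1564 counts in replicates 3 and 4 and to 0 in replicates 1 and 2, so that each group held 2 libraries of each kind. Paneth cell markers were abundant in all libraries, with a summed level of 222322 to 290262 CPM in TG and 210615 to 298375 CPM in WT over 6 genes. Only 1 of the 6 had a higher fitted value in TG, and 3 were called lower in TG by edgeR. The summed level of 11 enterocyte markers was 522 to 689 CPM in TG and 354 to 455 CPM in WT, with higher fitted values in TG for all 11 and an edgeR call for 5. Their part in the differences of the clock genes was not tested. Of 4 stem cell markers 1 was called lower in TG, with sums of 1622 to 2358 CPM in TG and 1551 to 2229 CPM in WT. Enteroendocrine markers summed to 0.456 to 9.43 CPM in TG and 5.36 to 32.7 CPM in WT, tuft cell markers to 14.0 to 46.1 and 15.5 to 31.7 CPM, and immune cell markers to 8.57 to 29.4 and 11.9 to 18.5 CPM, with 0 calls by edgeR among those tested. Of 6 goblet cell markers 0 were called, and 3 fibroblast markers summed to at most 0.298 CPM, with Col1a2 at 0. In sorted bulk cells, fewer cells of a type and less RNA per cell cannot be told apart.

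Between TG and WT, clock genes differed in both directions. The REV-ERB genes Nr1d1 and Nr1d2, the period gene Per3 and the D-box activator Tef were higher in all 4 TG libraries than in any WT library. Cry1 and Nfil3 were lower in all 4 TG libraries than in any WT library. Bmal1, Per1, Per2 and Cry2 overlapped between the groups. The 10 genes were chosen by their values in this contrast, the TG over WT differences of these same libraries, so their fold changes are given as a description with no test. Of the 10 genes, 6 passed an adjusted p of 0.05 in the edgeR fit, 4 higher and 2 lower, and 17.9% of all tested genes did (8.26% higher and 9.65% lower). The same 6 had no overlap between the groups, as had 22.0% of all tested genes, and nothing is read from either count. The median log2 fold change was 0.61 over the 10 genes and 0.01 over all tested genes.

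**Figure D1:**
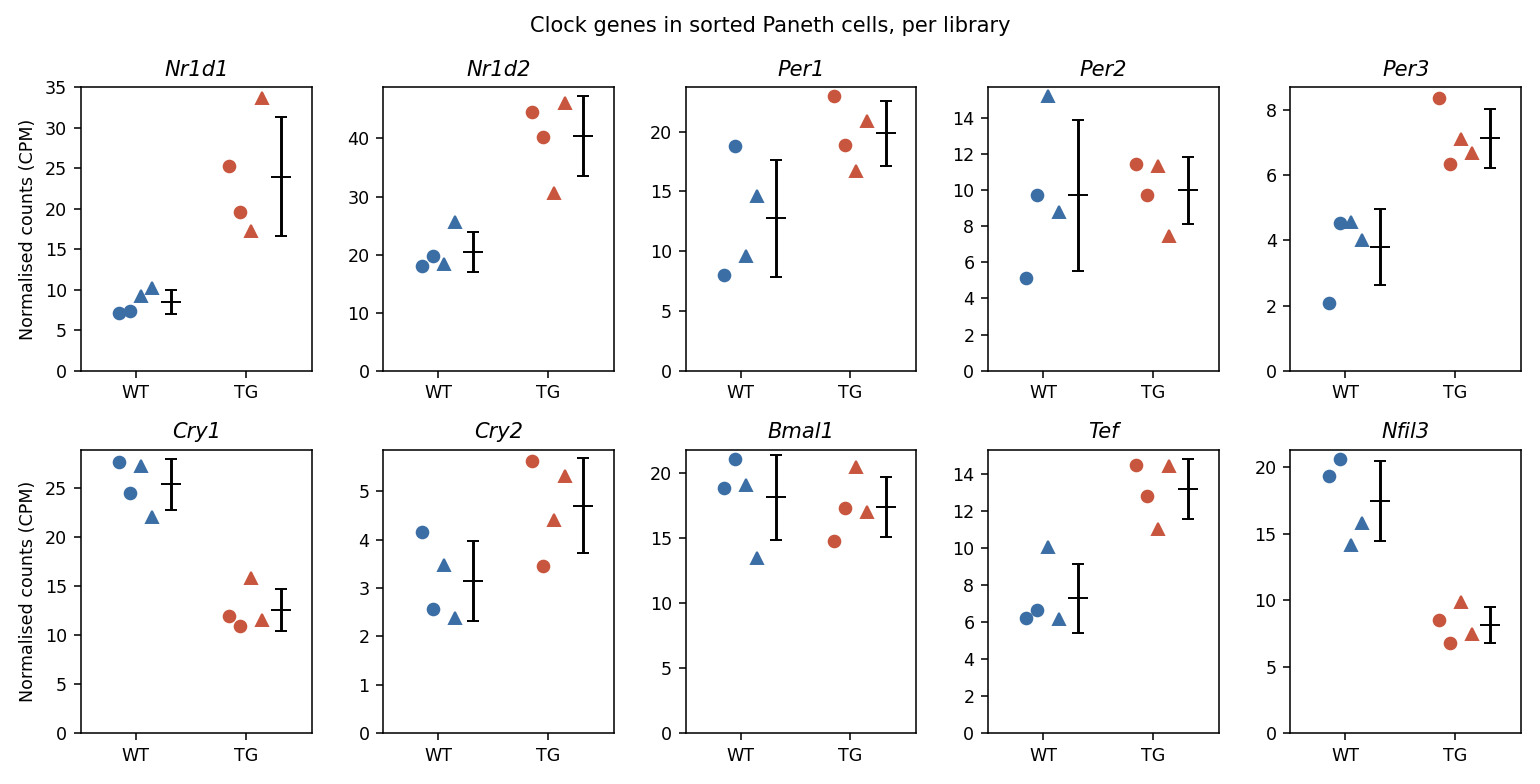
Normalised counts (CPM, vertical axes from 0) of the 10 clock genes in each of the 4 WT (blue) and 4 TG (red) libraries, with circles for replicates 1 and 2, triangles for replicates 3 and 4, and black bars for the mean ± SD. Nr1d1, Nr1d2, Per3 and Tef lie higher in every TG library than in any WT library, Cry1 and Nfil3 lie lower, and the other 4 genes overlap.

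Promoters were searched for the short sequences through which the loops act, within 500 bases on either side of the canonical start site (GRCm39, GENCODE, both strands). The letters searched were CACGTG for the E-box, CACGTT for its E-prime variant, TAGGTCA for the core of the ROR element, and TTATGTAA or TTATGCAA for the D-box. Among 11294 tested protein-coding genes, these windows held the E-box in 21.7%, the E-prime box in 19.2%, the ROR letters in 5.82% and the D-box letters in 1.91% and 1.76%. Of the 10 clock genes, 6 held the E-box, 4 the E-prime box, 2 the ROR letters, and 2 and 1 the D-box letters. Matches are named below with the gene that holds them and their position relative to the start site, and those printed have the matched letters in capitals. Nr1d2 held an E-box at 475 and Cry2 an E-prime box at -103. A match is a description of the letters and not evidence of binding.

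Nr1d1 (ENSMUSG00000020889, chromosome 11, 98658752 to 98666188, minus strand) had 25.3, 19.6, 17.2 and 33.7 CPM in TG replicates 1 to 4 and 7.11, 7.38, 9.24 and 10.2 CPM in WT replicates 1 to 4. The lowest TG library lay above the highest WT library. The means were 24.0 ± 7.32 and 8.48 ± 1.48 CPM (SD, n = 4 each), and the log2 fold change was 1.49 ± 0.21 (SE), or 2.81-fold, the largest of the 10 genes. Its 3' end overlaps that of Thra, the thyroid hormone receptor alpha gene on the opposite strand (98629109 to 98661924), and the sources used here do not say whether the counting used strand. Thra had 29.3 ± 3.27 CPM in TG and 17.9 ± 3.46 CPM in WT (SD, n = 4 each), and it was also higher in TG, by 0.71 ± 0.13 (SE) in log2 (edgeR adjusted p = 0.00335). The start region of Nr1d1 held an E-box at position -364 and E-prime boxes at -351 and -69, and the first and last of these are shown because E-boxes are the input of this gene from BMAL1.
Nr1d1 E-box, chr11:98666510-98666537, minus strand: agttctccaatCACGTGaagctctcacg
Nr1d1 E-prime box, chr11:98666215-98666242, plus strand: ccagcagccggCACGTTgagatctgtgc

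Nr1d2 (ENSMUSG00000021775, chromosome 14, 4230545 to 4266624, plus strand), the second REV-ERB gene, had 44.5, 40.3, 30.6 and 46.1 CPM in TG and 18.1, 19.8, 18.4 and 25.6 CPM in WT. The groups again did not overlap, and TG replicate 3 was the lowest TG library for both REV-ERB genes. The means were 40.4 ± 6.93 and 20.5 ± 3.51 CPM (SD, n = 4 each), with a log2 fold change of 0.98 ± 0.14 (SE).

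Cry1 and Nfil3 were lower in TG. Cry1 (ENSMUSG00000020038, chromosome 10, 84967560 to 85021252, minus strand), which codes for a cryptochrome repressor, had 12.01, 10.98, 15.8 and 11.6 CPM in TG and 27.7, 24.6, 27.3 and 22.1 CPM in WT. The highest TG library, replicate 3, lay below the lowest WT library. The means were 12.6 ± 2.19 and 25.4 ± 2.62 CPM (SD, n = 4 each), and the log2 fold change was -1.01 ± 0.13 (SE). Nfil3 (ENSMUSG00000056749, chromosome 13, 53121245 to 53137010, minus strand), the D-box repressor, had 8.51, 6.75, 9.88 and 7.45 CPM in TG and 19.3, 20.6, 14.1 and 15.8 CPM in WT. Its groups did not overlap either. The means were 8.15 ± 1.36 and 17.5 ± 3.03 CPM (SD, n = 4 each), and the log2 fold change was -1.09 ± 0.15 (SE).

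Bmal1 (ENSMUSG00000055116, chromosome 7, 112806152 to 112914735, plus strand), the activator of the loop, had 14.8, 17.3, 20.4 and 17.0 CPM in TG and 18.9, 21.1, 19.1 and 13.5 CPM in WT. The groups overlapped over most of their range, and the lowest library of all was WT replicate 4. The means were 17.4 ± 2.33 and 18.1 ± 3.26 CPM (SD, n = 4 each), with a log2 fold change of -0.06 ± 0.14 (SE) that turned to 0.05 when total counts replaced the TMM factors. Bmal1 and Nfil3 were the only 2 of the 10 genes with the ROR letters in the window, at positions 108 and 283. The sites are shown because they carry the letters that REV-ERB proteins are known to read, and Cry1 is shown beside them as another known target, whose window held E-box letters at -26, E-prime letters at -45 and no ROR letters. Nfil3 also held an E-box, at -405.
Bmal1 ROR element, chr7:112806738-112806764, plus strand: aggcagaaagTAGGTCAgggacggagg
Nfil3 ROR element, chr13:53135071-53135097, plus strand: tgtgtgttagTAGGTCAgttccgagcg
Cry1 E-box, chr10:85020962-85020989, minus strand: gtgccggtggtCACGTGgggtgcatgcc
Cry1 E-prime box, chr10:85020981-85021008, plus strand: caccggcacctCACGTTtctgaagtgtg

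The period genes, whose proteins form the repressor complex with the cryptochromes, are described next, and differences between them were not tested. Per3 (ENSMUSG00000028957, chromosome 4, 151081373 to 151129140, minus strand) had 8.38, 6.33, 7.11 and 6.69 CPM in TG and 2.08, 4.53, 4.55 and 4.02 CPM in WT. All TG libraries lay above all WT libraries, and WT replicate 1, with 26 counts, was the lowest. The log2 fold change was 0.90 ± 0.21 (SE). Per1 (ENSMUSG00000020893, chromosome 11, 68986035 to 69002300, plus strand) had 23.0, 18.9, 16.7 and 20.9 CPM in TG and 7.99, 18.8, 9.57 and 14.6 CPM in WT. Only WT replicate 2 reached into the TG range, at about the level of TG replicate 2. The log2 fold change was 0.64 ± 0.24 (SE), with 0.88 without WT replicate 2 and 0.47 without WT replicate 1. Per2 (ENSMUSG00000055866, chromosome 1, 91343700 to 91387069, minus strand) had 11.4, 9.71, 11.3 and 7.45 CPM in TG and 5.12, 9.75, 15.2 and 8.78 CPM in WT. Both the lowest and the highest library were WT, and the log2 fold change was 0.04 ± 0.27 (SE), with a sign that depended on single libraries. D-box letters were found in all 3 genes, as TTATGTAA in Per2 at -121 and in Per3 at -183 and -136, and as TTATGCAA in Per1 at 486. E-box letters were found in Per1 at -20 and 343 and, as the E-prime form, in Per2 at 8. All of these but the Per1 E-box at 343 are shown, since both elements are inputs of the period genes.
Per1 E-box, chr11:68989235-68989262, plus strand: ccccttaacgaCACGTGggccctcaatt
Per1 D-box, chr11:68989741-68989768, plus strand: gggcctggcaTTATGCAAcccgcctccc
Per2 E-prime box, chr1:91387025-91387052, minus strand: gcgcgcgcggtCACGTTttccactatgt
Per2 D-box, chr1:91387154-91387181, minus strand: catgtgcgtcTTATGTAAagagagcgac
Per3 D-box, chr4:151129310-151129337, minus strand: gacccgcgcgTTATGTAAggtactcggg
Per3 D-box, chr4:151129263-151129290, minus strand: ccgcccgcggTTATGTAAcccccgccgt

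Tef (ENSMUSG00000022389, chromosome 15, 81686622 to 81711064, plus strand), the D-box activator, had 14.5, 12.8, 11.1 and 14.4 CPM in TG and 6.23, 6.69, 10.04 and 6.18 CPM in WT. The TG libraries lay above the WT libraries, of which replicate 3 came nearest. The log2 fold change was 0.85 ± 0.17 (SE), opposite in sign to that of Nfil3, its antagonist at the same sequence. Tef held 3 E-boxes in its window, at -469, -358 and -136, more than any other of the 10 genes. Cry2 (ENSMUSG00000068742, chromosome 2, 92233894 to 92264474, minus strand), the paralog of Cry1, had 5.63, 3.45, 4.40 and 5.32 CPM in TG and 4.16, 2.58, 3.48 and 2.38 CPM in WT. Its groups overlapped, and its log2 fold change of 0.58 ± 0.23 (SE) was opposite in sign to that of Cry1.

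The order of the levels, given as CPM per kilobase of exon, differed between the groups. In WT, Cry1 was the highest at 5.11 ± 0.527 per kilobase, above Nfil3 at 3.53 ± 0.611 (SD, n = 4 each), with no overlap of libraries. From Nfil3 down to Tef (Nr1d1, Nr1d2, Per1, Bmal1, Per2 and Tef in that order) each gene overlapped its neighbour, and Cry2 and Per3 were the lowest, at 0.367 ± 0.0961 and 0.362 ± 0.111 (SD, n = 4 each). In TG, Nr1d1 was the highest at 7.39 ± 2.26, followed by Nr1d2 at 4.46 ± 0.765 (SD, n = 4 each), and neither overlapped its lower neighbour. Per1 and Cry1 overlapped each other, at 2.59 and 2.53 per kilobase, as did Nfil3, Tef, Per2 and Bmal1 in sequence, from 1.65 to 1.502. Per3 and Cry2 were again the lowest, at 0.680 and 0.548 per kilobase.

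The differences between TG and WT were next compared within the libraries with and without Y-linked counts, with 2 libraries of each group on either side and no test. In the libraries without Y-linked counts, the log2 differences were 1.604 for Nr1d1, 1.16 for Nr1d2, 1.21 for Per3, 1.06 for Tef, -1.18 for Cry1 and -1.38 for Nfil3. In those with Y-linked counts they were 1.30, 0.79, 0.67, 0.67, -0.86 and -0.79 in the same order. These signs were fixed by the lack of overlap between the groups and carry no support of their own. Per2 and Bmal1, whose groups overlapped, changed sign, with 0.57 and -0.32 in the libraries without and -0.33 and 0.22 in those with Y-linked counts. By an edgeR interaction term 0 of the 10 genes differed between the sides, against 0.0251% of all tested genes, with a smallest adjusted p of 0.852. Of the 10 genes 1, Nfil3, had an unadjusted interaction p below 0.05, at 0.0377.

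A contrast that had no part in the choice of the genes was that of the libraries with against those without Y-linked counts, with the group in the fit. Of the 10 clock genes 0 were called by edgeR, 0 had an unadjusted p below 0.05 and DESeq2 called 0, and 0.176% of all tested genes (21 genes) were called by edgeR. The smallest adjusted p was 0.949, for Nr1d1, whose log2 difference was 0.27 ± 0.19 (SE). Per2 followed in size with 0.25 ± 0.27, and the differences of Nr1d2 and Bmal1 were 0.02 ± 0.15 and -0.03 ± 0.14 (SE). With 2 libraries of each kind per group, differences of this size were within the spread between libraries, which does not show that the sets were alike.

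Genes of the clock beyond these 10 were examined in a list of 21 with known roles, of which 16 passed the filter on low counts. In the same edgeR fit 1 rose, 2 fell and 13 did not pass, and their median log2 fold change was 0.10. With 17.9% of all tested genes called (8.26% higher and 9.65% lower), these 3 of 16 are near the background, so the genes below are described singly and the counts of their lists are no result about the clock. Of 9 further genes of the loops, 6 were tested and 1 passed, beside 17.9% of all tested genes. Rora, which codes for the activator that competes with REV-ERB proteins at ROR elements, rose from 5.91, 5.22, 4.35 and 8.78 CPM in WT to 10.4, 13.9, 9.71 and 8.82 CPM in TG. The difference was 0.82 ± 0.21 (SE) in log2, the edgeR adjusted p was 0.0162, and without TG replicate 2 it was no longer called (adjusted p = 0.0616).

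The partners of BMAL1 were well expressed and did not pass the test. Clock had 47.4 ± 2.37 CPM in TG and 45.3 ± 4.44 CPM in WT (SD, n = 4 each), a log2 fold change of 0.07 ± 0.09 (SE) and an edgeR adjusted p of 0.644. Npas2 had 31.5 ± 5.19 and 27.97 ± 6.70 CPM (SD, n = 4 each), a log2 fold change of 0.17 ± 0.16 (SE) and an edgeR adjusted p of 0.502. Its differences within the libraries without and with Y-linked counts were -0.27 and 0.64, with an unadjusted interaction p of 0.000525 that did not hold over all genes (edgeR adjusted p = 0.330). Bhlhe40, which codes for an E-box repressor, had 69.8 ± 4.14 and 63.2 ± 2.67 CPM (SD, n = 4 each), with an edgeR adjusted p of 0.226. Rorb and Bhlhe41 had 0 counts in all 8 libraries, which at 3 counts per library allows a level of up to 0.240 CPM in the library with the smallest scaled size.

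Among 5 output genes, 3 were tested and 1 fell, beside 9.65% of all tested genes that were lower. Nampt, which codes for the enzyme that makes the NAD precursor nicotinamide mononucleotide, had 21.6, 25.1, 24.9 and 20.6 CPM in TG and 31.0, 29.0, 34.5 and 33.9 CPM in WT. No TG library reached the lowest WT library, and the log2 fold change was -0.48 ± 0.10 (SE). The edgeR adjusted p was 0.00555, and 0.137 when total counts replaced the TMM factors. Dbp, the D-box activator related to Tef, was nearly absent, with 9 to 12 counts per library in TG and 2 to 17 in WT, or 0.657 ± 0.0636 and 0.587 ± 0.426 CPM (SD, n = 4 each). Hlf, the third activator of that family, had 0 to 4 counts per library, so that Tef was by far the most abundant of the 3. Ciart, a repressor of BMAL1 and CLOCK, had 3 to 23 counts in TG and 5 to 11 in WT. Neither Dbp, Hlf nor Ciart was tested, since they fell below the filter.

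Of 7 genes for proteins that modify or degrade clock proteins, all 7 were tested, 1 fell and 6 did not pass, again beside 9.65% of all tested genes that were lower. Fbxw11, which codes for a ligase subunit that acts on PER proteins, was at 40.2 ± 1.68 CPM in TG and 50.3 ± 1.58 CPM in WT (SD, n = 4 each). It fell, with a log2 change of -0.32 ± 0.08 (SE). The edgeR adjusted p was 0.0124, and 0.273 with total counts. The kinase genes Csnk1a1, Csnk1d, Csnk1e and Gsk3b had log2 fold changes between -0.06 and 0.04, with edgeR adjusted p of 0.658 to 0.989.

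**Figure D2:**
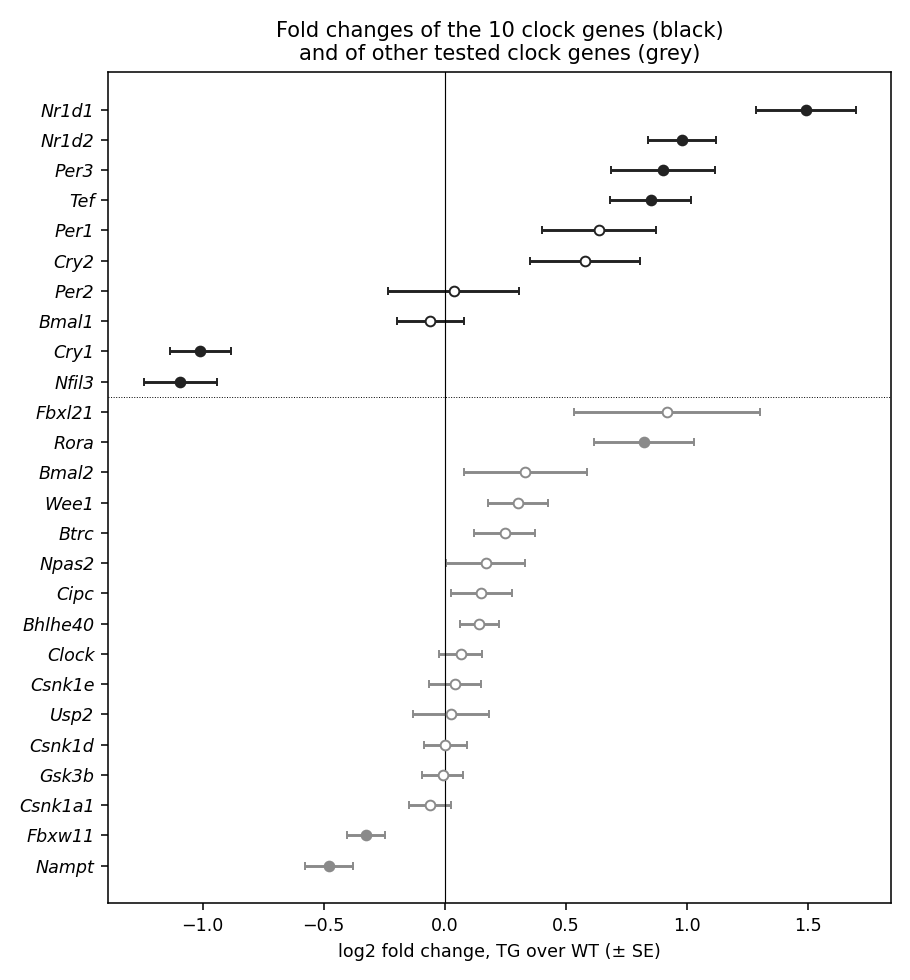
Log2 fold changes of TG over WT (horizontal axis, ± SE from the edgeR fit of 8 libraries) for the 10 clock genes (black) and the 16 other tested clock genes (grey). Filled points passed an adjusted p of 0.05 over all 11929 genes. Nr1d1 has the largest value at 1.49 and Nfil3 the lowest at -1.09, while most of the other clock genes lie near 0.

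Co-variation was described within the groups, so that the difference between TG and WT had no part in it. Each gene's log2 CPM was centred on its group mean, and the deviations of the 8 libraries were compared for all 45 pairs, of which 23 had a positive and 22 a negative Pearson r. With total counts and no TMM factors, 34 of the 45 were positive. The REV-ERB genes had a positive r with each other and a negative r with Cry1 and Bmal1. For Nr1d2 and Cry1, r was -0.90 and Spearman's rho -0.93 (exact permutation within groups, two-sided, p = 0.0226 for both), the lowest of the 45. For Nr1d2 and Bmal1, r was -0.84 (exact permutation p = 0.0382) and rho -0.88 (p = 0.0469). For Nr1d1 and Nr1d2, r was 0.79 (exact permutation p = 0.0330) and rho 0.74 (p = 0.0503). For Nr1d1 and Bmal1, r was -0.61 (exact permutation p = 0.113) and rho -0.62 (p = 0.135).

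The design could not let a single pair pass the adjustment over the 45 pairs, since the smallest p that the 576 arrangements can give is 0.00174 and more than 1 pair would have had to reach it. The adjusted values therefore say nothing of whether the relations are present. With Benjamini-Hochberg adjusted exact permutation p the smallest value was 0.430 for r, 0.521 for rho, and 0 pairs passed 0.05, with 4 pairs at an unadjusted p below 0.05 for r and 3 for rho. Of the other tested genes, 0.193% had an r with Nr1d2 as low as that of Cry1, and 0.587% one as low as that of Bmal1. An r with Nr1d1 as high as that of Nr1d2 was found for 1.11% of the genes. One as low as that of Bmal1 was found for 5.46%. An r as high as that of Per3 was found for 2.41% with Per2 and for 9.94% with Per1. Counted from the second gene of each pair, every share was larger, with 0.327% for Cry1 and 0.662% for Bmal1 in their pairs with Nr1d2. These pairs were named as the highest and lowest of the 45, so a small share is no separate support for them. Within each library all genes share 1 scaling factor, and genes are not independent of each other. When total counts replaced the TMM factors, r was -0.55 for Nr1d2 and Cry1, -0.42 for Nr1d2 and Bmal1, -0.29 for Nr1d1 and Bmal1, and 0.77 for Nr1d1 and Nr1d2.

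The deviations of 2 libraries were the widest for Nr1d2. TG replicate 3 lay below its group mean for Nr1d2 (deviation -0.38 in log2 CPM) and at -0.43 for Nr1d1, and it lay at 0.34 for Cry1 and 0.24 for Bmal1. WT replicate 4 deviated the other way, at 0.34 for Nr1d2 and 0.28 for Nr1d1, and at -0.20 for Cry1 and -0.41 for Bmal1. Without these 2 libraries, the farthest from the median of Nr1d2, r was -0.73 for Nr1d2 and Cry1 and -0.64 for Nr1d2 and Bmal1. For Nr1d2 and Nfil3, r was -0.45 (exact permutation p = 0.314) and rho -0.45 (p = 0.306) over all 8 libraries, and r was -0.06 without these 2, on which it rested. Without TG replicates 3 and 4, the farthest for Nr1d1, r was 0.65 for Nr1d1 and Nr1d2 and -0.73 for Nr1d1 and Bmal1. For Nr1d1 and Cry1, r was -0.56 (exact permutation p = 0.241) and rho -0.52 (p = 0.226) over all 8 libraries. Without these 2 libraries r was -0.19, and within the 4 WT libraries, which include neither, it was -0.55 (no test). Centring on the library set with and without Y-linked counts as well gave r of -0.91 for Nr1d2 and Cry1, -0.82 for Nr1d2 and Bmal1, 0.85 for Nr1d1 and Nr1d2, and -0.61 for Nr1d1 and Bmal1. The signs were also the same within each group alone, with r for Nr1d2 and Cry1 of -0.87 in TG and -0.96 in WT (n = 4 each, no test).

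**Figure D3:**
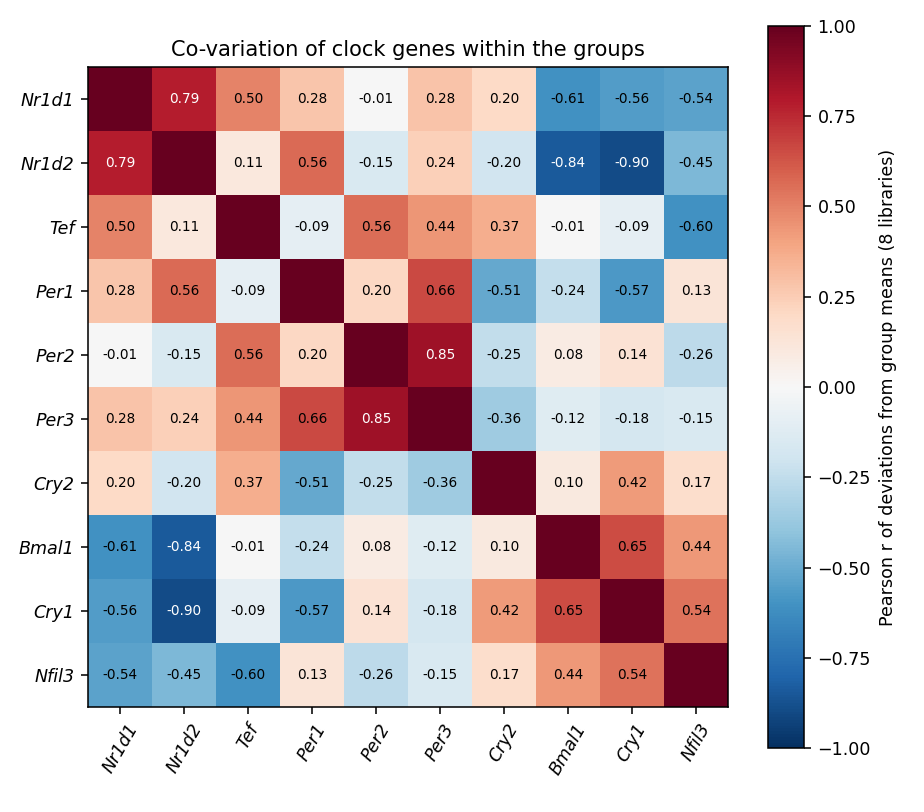
Pearson r between the 10 clock genes over the deviations of 8 libraries from their group means, red for positive and blue for negative values. Nr1d1 and Nr1d2 are positive with each other at 0.79 and negative with Bmal1 and Cry1, and Per2 and Per3 have an r of 0.85.

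Of the period genes, Per2 and Per3 had the highest r over all 8 libraries. For Per2 and Per3, r was 0.85 (exact permutation p = 0.0191) and rho 0.79 (p = 0.0382), the highest of the 45 pairs, with the same sign of deviation in 7 of 8 libraries. For Per1 and Per3, r was 0.66 (exact permutation p = 0.233) and rho 0.40 (p = 0.497). For Per1 and Per2, r was 0.20 (exact permutation p = 0.806) and rho 0.048 (p = 0.941), with r of -0.61 without WT replicates 1 and 2. WT replicate 1 was low for all 3 genes, at -0.58 for Per1, -0.81 for Per2 and -0.77 for Per3. Without WT replicate 1, r for Per2 and Per3 was 0.56. Without WT replicates 1 and 3 it was 0.53. For Per1 and Per3, r was -0.03 without WT replicates 1 and 2, and 0.54 within the 4 TG libraries, with no test. Leaving out 1 WT library gave this pair 0.15 (replicate 1), 0.60 (replicate 2) and 0.93 (replicate 3), so that it depended most on replicate 1. Without WT replicate 3, r for Per2 and Per3 was lower than that, at 0.88. Centring on the library set gave 0.80 for Per2 and Per3 and 0.78 for Per1 and Per3. The spread of the period genes was wider in WT than in TG, with SDs of the log2 CPM of 0.56, 0.63 and 0.52 in WT and 0.20, 0.29 and 0.17 in TG for Per1, Per2 and Per3, a difference that was not tested. The spread was wider in TG for 3 of the 10 genes, Nr1d1 (0.43 in TG and 0.25 in WT), Nr1d2 (0.27 and 0.23) and Cry1 (0.23 and 0.15).

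**Figure D4:**
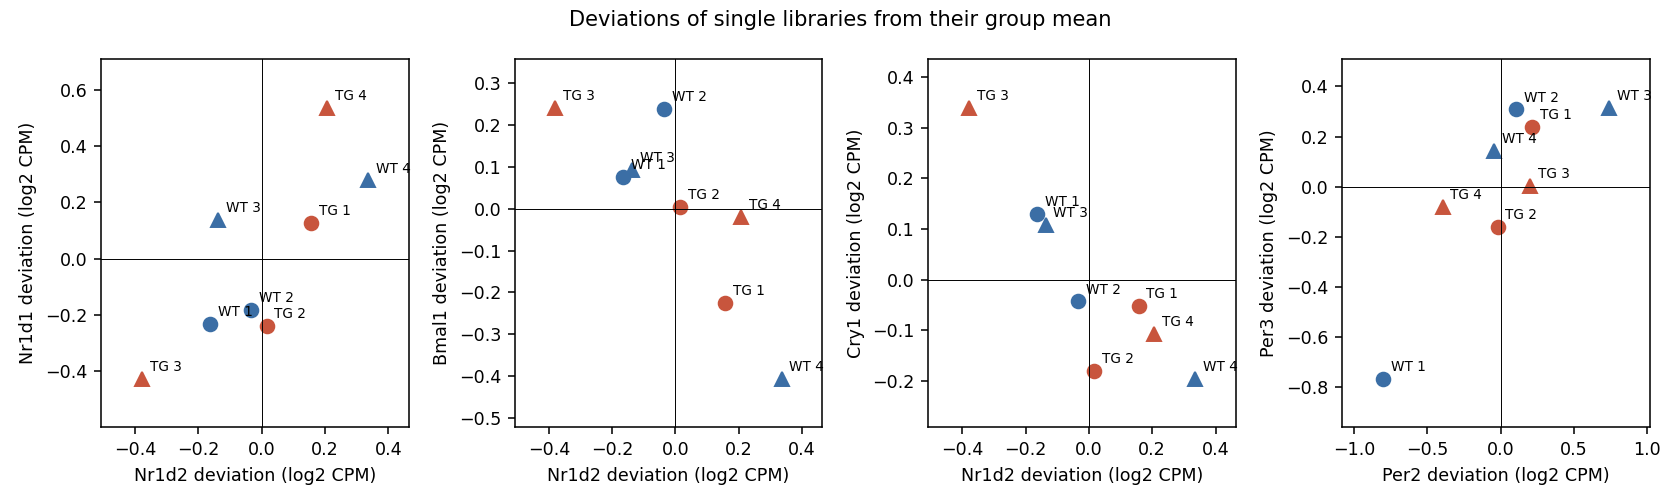
Deviations of single libraries from their group mean in log2 CPM, for Nr1d2 against Nr1d1, Bmal1 and Cry1 and for Per2 against Per3, with TG in red, WT in blue, circles for replicates 1 and 2 and triangles for replicates 3 and 4. TG 3 and WT 4 lie at opposite ends for Nr1d2, with Cry1 at 0.34 and -0.20, and WT 1 lies apart for Per2 and Per3.

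The genes most like Nr1d1 over the same deviations, among 8124 tested genes with a symbol and a mean log2 CPM of at least 3, were Ints4, Tsc22d1, Slc25a23, Fto and Parm1, with r of 0.99, 0.96, 0.95, 0.93 and 0.93 over 8 libraries. Their log2 fold changes between TG and WT were -0.22, 0.29, 0.55, 0.15 and -0.54. The genes most like Bmal1 were Naxd, Tnk2, Med25, Skic2 and Usp43, with r of 0.98, 0.95, 0.95, 0.95 and 0.93 and log2 fold changes of 0.11, -0.47, -0.27, 0.07 and -0.11. Neither list held another of the 10 clock genes, of which Per3 and Cry2 lay below the level needed to be a candidate. These genes were picked as the highest of all candidates, and the values carry no test.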

How the data were processed

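RNA was purified from sorted Paneth cells with an Aurum total RNA kit, and libraries were made with a stranded kit for mRNA. What the authors deposited is a single table for the 8 libraries, with raw read counts by Ensembl gene. The submitters' processing notes name the build mm39, FastQC 0.12.0, STAR 2.7.0a and DESeq2 without saying which step each served. The sources used here do not give the counting tool, the annotation, the strand setting or the treatment of reads with several alignments. Symbols, positions and exon lengths were added from GENCODE M39 (GRCm39), which matched 54749 of 55414 IDs. No per-sample column was left out.

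Counts were tested with edgeR 4.0.16 in R 4.3.3 (TMM factors, default filter by group, robust quasi-likelihood fit, Benjamini-Hochberg adjustment at 0.05 over 11929 genes), with the group as the only term and all 8 libraries. SEs are the fold change divided by the root of F. CPM values use the TMM-scaled library sizes. The fits were tested on simulated data. Replicates were not duplicates, since the chi-square per degree of freedom between libraries of a group was at least 5.20. Deviations used log2 CPM with a prior count of 2, and exact permutation tests ran over all 576 reassignments of libraries within the groups, with a smallest possible p of 0.00174. Some genes of the clock lists are not reported here and stand in no count of those lists. The members and lists were chosen with earlier results of these data known. The text names all 10 members, 5 fixed further clock genes and any other of the list that passed. It also names the 3 pairs with the highest and the 3 with the lowest r, and the 5 genes most like Nr1d1 and Bmal1. Thra, Dbp's relative Hlf, Rorb, Bhlhe41 and the kinases were named after their values were seen. So were the pairs Nr1d2 and Nfil3, Nr1d1 and Cry1, and Per1 and Per2. Alternatives were DESeq2 1.42.0, limma 3.58.1 voom, other factors and filters, a replicate block, the library set as a covariate, a prior count of 0.5 and each library left out in turn. The differences within the library sets were added after the data were seen.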

Additional observations from a re-analysis of the deposited data

Results flagged for a closer look

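Over 32 groups of 4 libraries, 3 held a library far from the others, where chance gives about 1.6. For Tef, WT replicate 3 stood at 10.04 CPM while the remaining WT values were 6.18 to 6.69 CPM. The gap was 0.868 of the range, and without that library the log2 fold change was 1.05. For Clock, WT replicate 2 stood at 51.9 CPM while the remaining WT values were 42.8 to 43.4 CPM, so that the gap was 0.932 of the range. Without that library its log2 fold change was 0.14 in place of 0.07, and it was still not called. For Fbxw11, TG replicate 1 stood at 42.7 CPM while the remaining TG values were 39.3 to 39.6 CPM, so that the gap was 0.900 of the range. Without that library Fbxw11 was still called lower in TG (log2 fold change -0.35, edgeR adjusted p = 0.0279).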

How the results depend on the processing

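The same 6 clock genes (Nr1d1, Nr1d2, Per3, Cry1, Tef and Nfil3) passed under all alternatives run, each library left out in turn included, which is no independent support since they were chosen on this contrast. Per1 passed in addition with DESeq2, voom, no filter and without WT replicate 2, and Cry2 with voom and without WT replicate 1. With voom 2 other clock genes were higher in place of 1. With total counts only, the all-gene median moved from 0.01 to 0.12 in log2, 262 genes in place of 1151 were lower, higher genes made up 75.02% of calls in place of 46.1%, 0 other clock genes were lower in place of 2, and Bmal1 was at 0.049. Whether that shift caused the changes was not tested. With 1 library left out, higher genes numbered 485 to 1045 and lower genes 550 to 1183 (lowest without TG replicate 2 and TG replicate 1), 0 to 2 higher other clock genes in place of 1 (0 without TG replicate 2, 2 without WT replicate 1 and without WT replicate 3), log2 fold changes of -0.17 to 0.34 for Per2 and -0.18 to 0.020 for Bmal1 (above 0 without TG replicate 1 and without WT replicate 2), and 9 to 24 genes called between the library sets in place of 21 (10, 13 and 9 without TG replicate 1, TG replicate 2 and WT replicate 3). DESeq2 called 53 there and total counts 11. Within the libraries with Y-linked counts, Per2 was at -0.33 and Bmal1 at 0.22. Deviations of same-numbered libraries correlated across genes at 0.08, 0.07, 0.29 and 0.23. Libraries with unlike numbers were not compared, so whether the numbers pair the libraries cannot be told. The replicate block gave 1039 higher and 1164 lower genes, the same 6 clock genes, and 1 higher and 2 lower other clock genes. With RLE factors, total counts, a prior count of 0.5 or 1 library left out, 0 pairs passed the adjusted threshold, which a single pair could not have passed in this design, and leaving out 1 library gave r of -0.98 to -0.77 for Nr1d2 and Cry1, -0.92 to -0.71 for Nr1d2 and Bmal1, and 0.15 to 0.93 for Per1 and Per3. Depth limits Dbp, Hlf and Ciart, with at most 23 counts per library.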
